A study of Mus musculus with 8 samples.

Results

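The genes that copy DNA and divide the cell were followed in mouse bone marrow-derived macrophages (BMDMs), which are macrophages grown from bone marrow cells. The set was a fixed list of 52 gene symbols, and all 52 were found among the 54532 genes of the deposited count table. It held 21 replication genes, 15 mitosis genes, 8 cyclins, 3 cyclin-dependent kinase (CDK) and phosphatase genes, 3 CDK inhibitors and 2 E2F factors. Bulk RNA sequencing libraries came from 4 groups of 2, numbered 1 and 3 in the labels. Control cells received neither stimulus. Another group was given 100 ng/ml lipopolysaccharide (LPS), a part of the outer membrane of bacteria, for 4 h, and another was given the cytokine interleukin 4 (IL-4) at 20 ng/ml for 24 h. The last group received IL-4 for 24 h, was washed and then received LPS for 4 h at those concentrations. No genotype, strain or age was given in the sources used here, and neither was the culture medium.

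Replication starts when the MCM helicase is loaded at origins with the help of Cdc6 and Cdt1, and Cdc45 and the GINS complex then start it. D-type cyclins with their kinases and then E-type cyclins with Cdk2 free the E2F factors from the retinoblastoma protein, and E2F factors turn on many replication genes. Cyclin A and the B-type cyclins drive S phase and mitosis, and many mitosis genes are controlled through a promoter element called the cell cycle genes homology region (CHR) and through CCAAT boxes. CDK inhibitors such as p21, encoded by Cdkn1a, hold the kinases back. Macrophages grown from bone marrow divide in response to colony-stimulating factor 1, and LPS is known to stop that division.

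Replication and mitosis genes carried different promoter elements. Promoters were taken from RefSeq (build GRCm38.p6) as the 300 bases from 250 before to 50 after the start, and 41 of the 52 genes had one. Only the first listed start of each gene was used, and the counts of matches depend on that choice. The E2F site was searched as TTT, then 2 letters that were each C or G, then CGC, the CHR as TTTGAA and the CCAAT box as CCAAT, all on both strands. Matches of different motifs overlapped in 1 place among the 41 (Mcm7). An E2F site lay in 8 of 17 replication promoters (47.1%), in 0 of 12 mitosis promoters and in 2.32% of all 27025 promoters. The 8 were Mcm3, Mcm5, Mcm6, Mcm7, Cdc6, Cdt1, Rfc3 and Pola1. A CHR lay in 9 of 12 mitosis promoters (75%), in 2 of 17 replication promoters (11.8%) and in 18.1% of all promoters. A CCAAT box lay in 91.7% of the mitosis and 70.6% of the replication promoters, beside 37.9% of all. These are matches of letters and not measured binding sites.

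**Figure D1:**
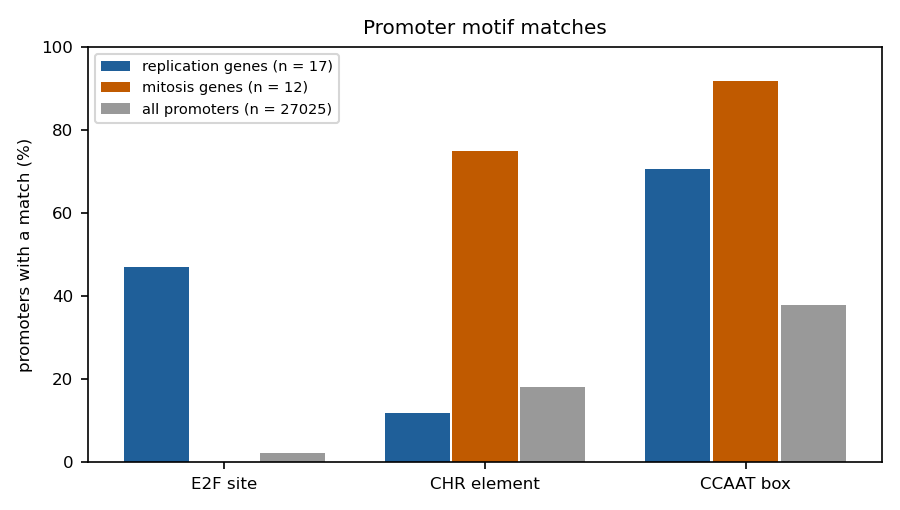
Share of promoters (percent) that hold each of the 3 motifs, for replication genes (17 with a promoter), mitosis genes (12) and all 27025 promoters. The E2F site stands at 47.1% in replication and 0% in mitosis promoters, and the CHR at 11.8% and 75%.

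The promoters below are given from 180 bases before to 24 bases after the start, because they show both layouts in genes that fell after LPS. Capitals mark every match of the 3 motifs. The replication genes Cdc6 (chr11:98907971-98908174, plus strand) and Mcm7 (chr5:138171860-138172063, minus strand) hold E2F sites, and Mcm7 also has a pair of CCAAT boxes read on the other strand. Both stretches lie inside the gene as placed in the deposited table (98907801 to 98923940 for Cdc6, 138164583 to 138172422 for Mcm7). The mitosis genes Cenpf (chr1:189688063-189688266, minus strand) and Cdc20 (chr4:118437320-118437523, minus strand) hold 1 CHR and 2 CCAAT boxes each.
Cdc6: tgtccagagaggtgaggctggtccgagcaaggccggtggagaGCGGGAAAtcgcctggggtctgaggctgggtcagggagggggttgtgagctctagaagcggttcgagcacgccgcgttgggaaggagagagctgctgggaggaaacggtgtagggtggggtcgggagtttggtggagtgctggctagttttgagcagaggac
Mcm7: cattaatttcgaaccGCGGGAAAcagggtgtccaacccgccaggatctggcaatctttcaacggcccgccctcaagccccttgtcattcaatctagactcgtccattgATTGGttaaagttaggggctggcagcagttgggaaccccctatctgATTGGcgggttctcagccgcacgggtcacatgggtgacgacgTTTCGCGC
Cenpf: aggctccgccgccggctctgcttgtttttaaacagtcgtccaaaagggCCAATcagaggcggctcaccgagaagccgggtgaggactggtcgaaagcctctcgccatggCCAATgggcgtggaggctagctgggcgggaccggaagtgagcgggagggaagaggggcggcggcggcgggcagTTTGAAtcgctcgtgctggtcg
Cdc20: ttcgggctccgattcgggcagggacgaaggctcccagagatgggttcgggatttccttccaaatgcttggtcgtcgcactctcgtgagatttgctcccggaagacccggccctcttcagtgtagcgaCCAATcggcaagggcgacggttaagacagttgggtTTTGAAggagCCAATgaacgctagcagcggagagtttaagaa

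The libraries held 7924932 to 9431852 counted reads, of which 14937 to 32465 fell on the 52 genes. The macrophage markers Adgre1, Csf1r and Cd68 stood at 529 to 1260, 1390 to 2950 and 863 to 1210 CPM (reads scaled to a common library total with TMM factors). Summed markers of other cell types were low, at 1.27 to 13.7 CPM for dendritic cells, 0.864 to 8.15 for neutrophils and their precursors, 0.624 to 21.8 for lymphocytes, 2.48 to 6.99 for erythroid cells and megakaryocytes, and 4.05 to 46.8 for stromal cells. The lymphocyte markers Cd3e, Cd3d, Cd79a and Ncr1 had no read in any library. Among these markers the lymphocyte gene Lck (log2 fold change 5.13), the dendritic genes Xcr1 (4.39) and Ccr7 (6.17) and the stromal genes Pdgfrb (4.89) and Cdh5 (2.62) rose after LPS. These changes rest on few control reads: 5 and 4 for Lck, 4 and 2 for Xcr1, 0 and 0 for Ccr7, 11 and 9 for Pdgfrb, and 3 and 6 for Cdh5. Ccr7 had 10 and 4 reads after LPS. The dendritic sum was 1.38 and 1.58 CPM in control and 12.4 and 7.18 after LPS, the lymphocyte sum 1.30 and 0.79 and then 21.8 and 8.42, and the stromal sum 4.58 and 4.05 and then 20.6 and 46.8. Their part in the results was not tested. Replicate 1 and replicate 3 differed in sex in every group. The X-inactivation transcript Xist stood at 330 to 438 CPM in the replicate 1 libraries and had 0 reads in the replicate 3 libraries, and the Y-linked Ddx3y had 0 reads in the former and 54.7 to 80.0 CPM in the latter. Library number and sex therefore cannot be told apart. Of the 52 genes, 47 in control, 44 after LPS, 50 after IL-4 and 43 after IL-4 then LPS were higher in replicate 1, against 49.2% to 52.1% of all tested genes. The main fit did not take this difference out. A fit with a replicate block was run as an alternative and is given in the last paragraph. The cause of the difference was not tested. The median difference between the libraries of a group over the 52 was 0.418 to 0.602 on the log2 scale. In bulk RNA, fewer dividing cells and less RNA per cell cannot be told apart.

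LPS lowered 25 of the 52 genes and raised 6. Genes were called at an adjusted p under 0.05 in edgeR's quasi-likelihood test, adjusted by Benjamini-Hochberg over all 12234 tested genes. Between LPS and control, 25 of the 52 fell, 6 rose and 21 were not called, where 40.4% of all tested genes were called. The 52 had a median log2 fold change of -1.09 against -0.01 for all tested genes. Of all tested genes, 18.6% fell and 21.8% rose, so that 53.9% of the calls were rises, against 21.2% with library size alone and 36.6% with upper-quartile factors. The ranges of the groups did not overlap for 35 of the 52 in the lower direction and for 9 in the higher, beside 36.7% and 35.9% of all tested genes. The count that fell was 16 without control replicate 1 and 13 without LPS replicate 3. In all 16 alternative settings, 13 of the falls and 4 of the rises were called again. These were Rrm2, E2f1, E2f2, Ccna2, Cdk2, Cdc25b, Cdc20, Plk1, Bub1b, Cenpf, Kif20a, Kif23 and Cdkn2c on the lower side, and Rfc3, Ccnd2, Ccne1 and Cdkn1a on the higher side.

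The mitosis genes fell in larger number than the replication genes. After LPS, 12 of 15 mitosis genes fell and 1 rose, with a median of -1.51, whereas 6 of 21 replication genes fell and 2 rose, with a median of -0.91. Among the 8 cyclins 1 fell and 2 rose, with a median of -0.55. The difference between the classes was not tested. Summed over the mitosis genes, the level was 673 and 439 CPM in control (replicate 1, then replicate 3, here and below) and 477 and 347 CPM after LPS. The replication sum was 763 and 595 CPM in control and 762 and 668 CPM after LPS, and Pcna alone made up 279, 242, 423 and 394 CPM of these.

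**Figure D2:**
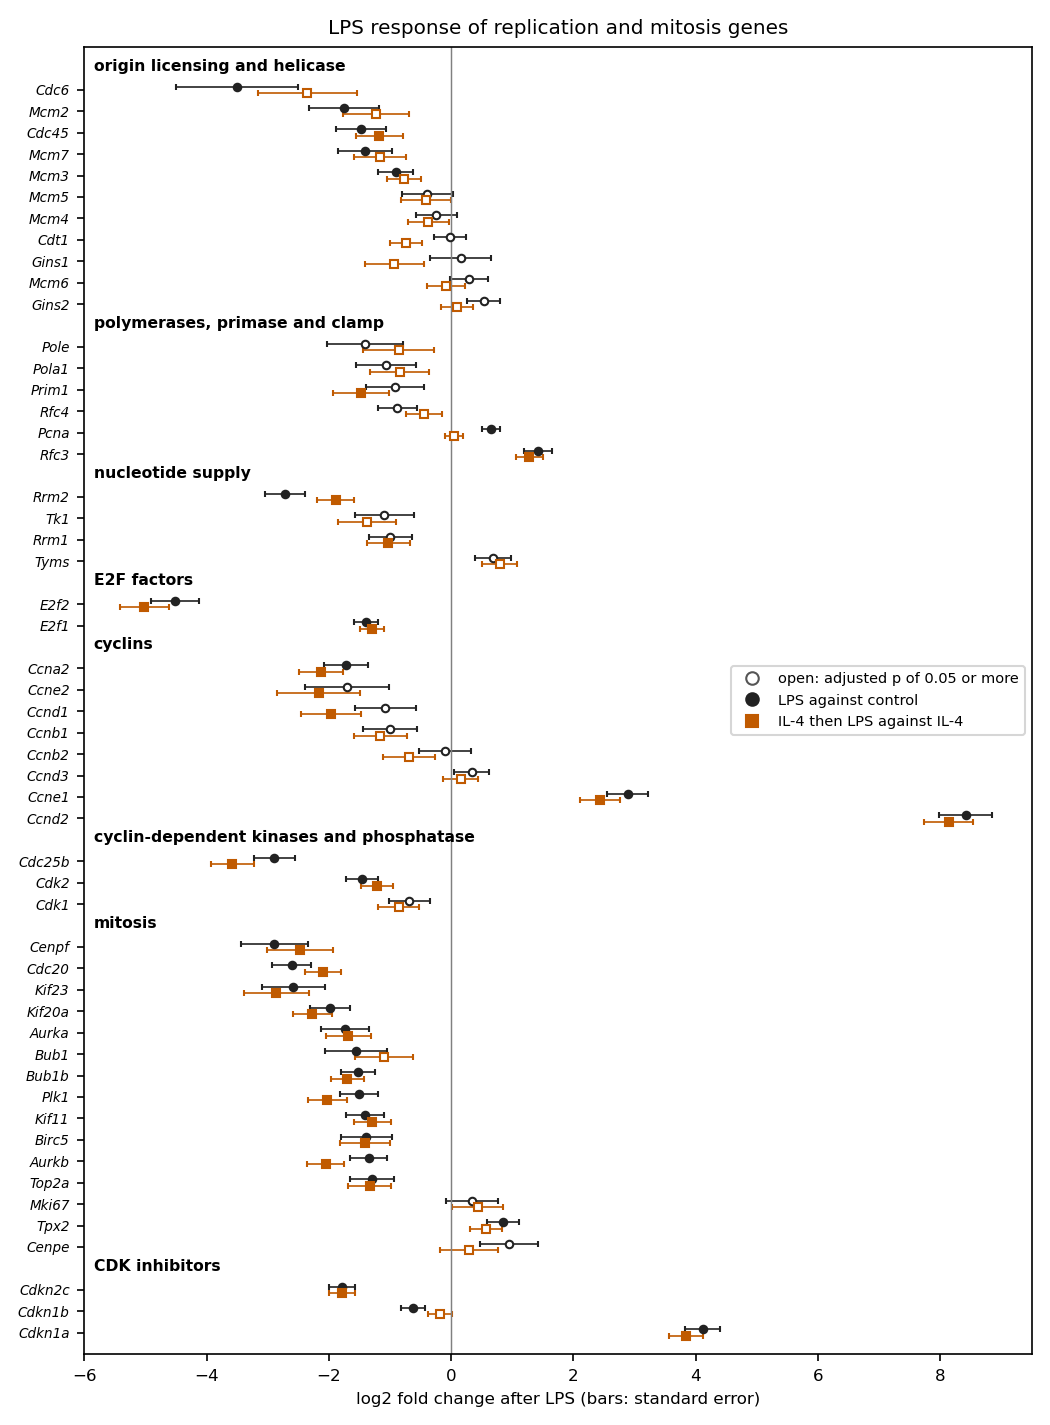
Log2 fold change of each of the 52 genes by role, for LPS against control (circles) and IL-4 then LPS against IL-4 (squares), with bars of 1 SE and filled symbols for an adjusted p under 0.05. Most mitosis genes lie below 0, replication genes lie on both sides, and Ccnd2 (8.41) and Cdkn1a (4.11) lie above all others.

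The helicase and its loading factors were called only downwards after LPS: 5 of 11 fell. Cdc6, the ATPase that loads MCM, stood at 4.58 and 1.98 CPM in control, 0.559 and 0 after LPS, 5.44 and 3.89 after IL-4, and 1.46 and 0.389 after IL-4 then LPS. These levels rest on 53, 20, 4, 0, 61, 43, 10 and 3 reads, and LPS replicate 3 had none. Cdc6 fell by 3.504 ± 0.995 on the log2 scale (fitted value ± SE, adjusted p = 0.0249), and was not called without control replicate 1 (0.113) or LPS replicate 3 (0.0994). Over the fits that leave out 1 library its value ran from -7.96, where LPS replicate 3 with its 0 reads stood alone, to -2.53. Mcm2, a helicase subunit, stood at 19.7 and 17.0 CPM in control and 8.53 and 2.35 CPM after LPS. It fell by 1.75 ± 0.57 (adjusted p = 0.0409), and the call was lost when any of control replicate 1 (0.11), control replicate 3 (0.0764) or LPS replicate 3 (0.153) was left out, with values from -2.96 to -1.11. Cdc45, which completes the active helicase, stood at 6.39 and 4.84 CPM in control and 1.82 and 2.21 after LPS. Cdc45 fell by 1.48 ± 0.41 (adjusted p = 0.0226), and it was not called without control replicate 1 (0.0943), LPS replicate 1 (0.0943) or LPS replicate 3 (0.0684). Levels of Cdc6, Mcm2 and Cdc45 did not overlap between control and LPS, as for 36.7% of all tested genes in this direction. These 3 were picked by their calls in the same libraries, so this is no separate support. Mcm7 (-1.41) and Mcm3 (-0.91) were the remaining falls. Mcm4, Mcm5, Mcm6, Cdt1, Gins1 and Gins2 were not called, with log2 fold changes from -0.39 to 0.53.

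Of the polymerase, primase and clamp genes, 0 of 6 fell and 2 rose after LPS. Rfc3, a subunit of the clamp loader, stood at 9.94 and 11.2 CPM in control, 23.5 and 32.9 after LPS, 12.7 and 10.9 after IL-4, and 24.9 and 32.4 after IL-4 then LPS. All 4 LPS-treated libraries lay above the other 4, and the rise was 1.42 ± 0.23 (adjusted p = 0.00199). Pcna, the sliding clamp, stood at 279 and 242 CPM in control, 423 and 394 after LPS, 464 and 393 after IL-4, and 450 and 432 after IL-4 then LPS. The control libraries were lower than all 6 others. Pcna rose by 0.65 ± 0.15 after LPS (adjusted p = 0.0104). That call was lost without control replicate 3 (0.0851) or LPS replicate 1 (0.0522), with upper-quartile factors (0.0762) and with library size alone (log2 fold change 0.04, adjusted p = 0.829). Rfc4, Pole, Pola1 and Prim1 lay between -1.41 and -0.88 with no call. Over the 16 alternative settings Rfc4 was called lower in 6, Pole and Pola1 in 3 each and Prim1 in 1.

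Of the 4 nucleotide supply genes, 1 was called lower after LPS. Rrm2, the regulated subunit of ribonucleotide reductase, stood at 37.7 and 26.4 CPM in control, 5.73 and 4.00 after LPS, 58.5 and 35.1 after IL-4, and 12.7 and 12.6 after IL-4 then LPS. Every LPS-treated library was below every library without LPS. Rrm2 fell by 2.72 ± 0.33 (adjusted p = 0.000467). The other reductase subunit Rrm1 (-0.99), thymidine kinase Tk1 (-1.09) and thymidylate synthase Tyms (0.68) were not called. Rrm1 was close to the threshold (adjusted p = 0.0575). Over the 16 alternative settings Rrm1 was called lower in 11, Tk1 lower in 3 and Tyms higher in 1.

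Both E2F genes fell. E2f2 stood at 54.5 and 48.3 CPM in control, 3.08 and 1.38 after LPS, 73.2 and 48.3 after IL-4, and 2.48 and 1.30 after IL-4 then LPS. LPS-treated libraries lay below all others, and E2f2 fell by 4.52 ± 0.39 (adjusted p = 8.7e-05). E2f1 stood at 20.1 and 24.0 CPM in control, 7.55 and 9.25 after LPS, 31.8 and 28.6 after IL-4, and 13.5 and 11.1 after IL-4 then LPS. It fell by 1.39 ± 0.20 (adjusted p = 0.00111), with no overlap between libraries with and without LPS. The 8 replication genes with an E2F site in the promoter ran from -3.504 to 1.42 after LPS with a median of -0.65, and 3 fell and 1 rose.

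Among the D-type cyclins, which respond to growth signals, the 3 members differed in pattern. Ccnd2 lies on the minus strand at chr6:127125162-127152193 (mm10, the build of the deposited table). It stood at 0.432 and 0.889 CPM in control, 288 and 164 after LPS, 1.25 and 1.45 after IL-4, and 430 and 337 after IL-4 then LPS. The reads behind these levels were 5, 9, 2056, 1189, 14, 16, 2954 and 2600, so the levels without LPS rest on few reads. Ccnd2 rose by 8.41 ± 0.43 (adjusted p = 1.3e-05), a 341-fold change. Ccnd1 stood at 11.8 and 17.2 CPM in control, 10.5 and 3.18 after LPS, 34.0 and 30.5 after IL-4, and 10.8 and 5.83 after IL-4 then LPS. Its log2 fold change after LPS was -1.08 ± 0.50 (adjusted p = 0.121), and it was called lower without LPS replicate 1 (0.0123), with library size alone (0.027) and without the filter (0.000212). Ccnd3 stood at 21.1 and 15.4 CPM in control and 28.8 and 17.4 after LPS, which overlapped (0.34 ± 0.29, adjusted p = 0.373). It stood at 20.9 and 15.1 CPM after IL-4 and 21.0 and 19.2 after IL-4 then LPS. Per kilobase of gene length, mean levels in control were 3.07 RPKM for Ccnd1, 2.08 for Ccnd3 and 0.0702 for Ccnd2, the lowest of the 52. After LPS, Ccnd2 stood at 24.0 RPKM.

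The E-type cyclins, partners of Cdk2 at the start of S phase, also differed. Ccne1 stood at 6.14 and 4.64 CPM in control, 30.2 and 49.8 after LPS, 8.64 and 5.43 after IL-4, and 33.1 and 43.0 after IL-4 then LPS. The LPS-treated libraries were all above the others, and Ccne1 rose by 2.88 ± 0.34 (adjusted p = 0.000388). Ccne2 stood at 9.68 and 3.46 CPM in control, 2.80 and 1.24 after LPS, 11.9 and 6.25 after IL-4, and 2.91 and 1.17 after IL-4 then LPS. The ranges did not overlap between control and LPS, but the change of -1.70 ± 0.68 was not called (adjusted p = 0.0812). It was called lower without control replicate 3 (0.035), by DESeq2 (0.0393), with library size alone (0.0262) and without the filter (0.000103).

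Of the S phase and mitotic cyclins, Ccna2 fell. Cyclin A2 stood at 40.7 and 28.1 CPM in control, 13.3 and 7.59 after LPS, 58.3 and 33.6 after IL-4, and 11.5 and 9.59 after IL-4 then LPS. Ccna2 fell by 1.72 ± 0.36 after LPS (adjusted p = 0.00691), with no overlap. Ccnb1, a cyclin of mitotic entry, stood at 32.7 and 19.8 CPM in control and 18.2 and 8.15 after LPS (-0.999 ± 0.445, adjusted p = 0.109). It stood at 43.5 and 24.6 CPM after IL-4 and 18.1 and 12.6 after IL-4 then LPS, and the LPS change was called lower without LPS replicate 1 (0.0379), with library size alone (0.0239) and without the filter (8.73e-05). Ccnb2 stood at 24.8 and 16.2 CPM in control, 18.3 and 19.9 after LPS, 36.5 and 18.2 after IL-4, and 23.2 and 11.0 after IL-4 then LPS. Control and LPS overlapped for Ccnb2 (-0.10 ± 0.43, adjusted p = 0.862).

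**Figure D3:**
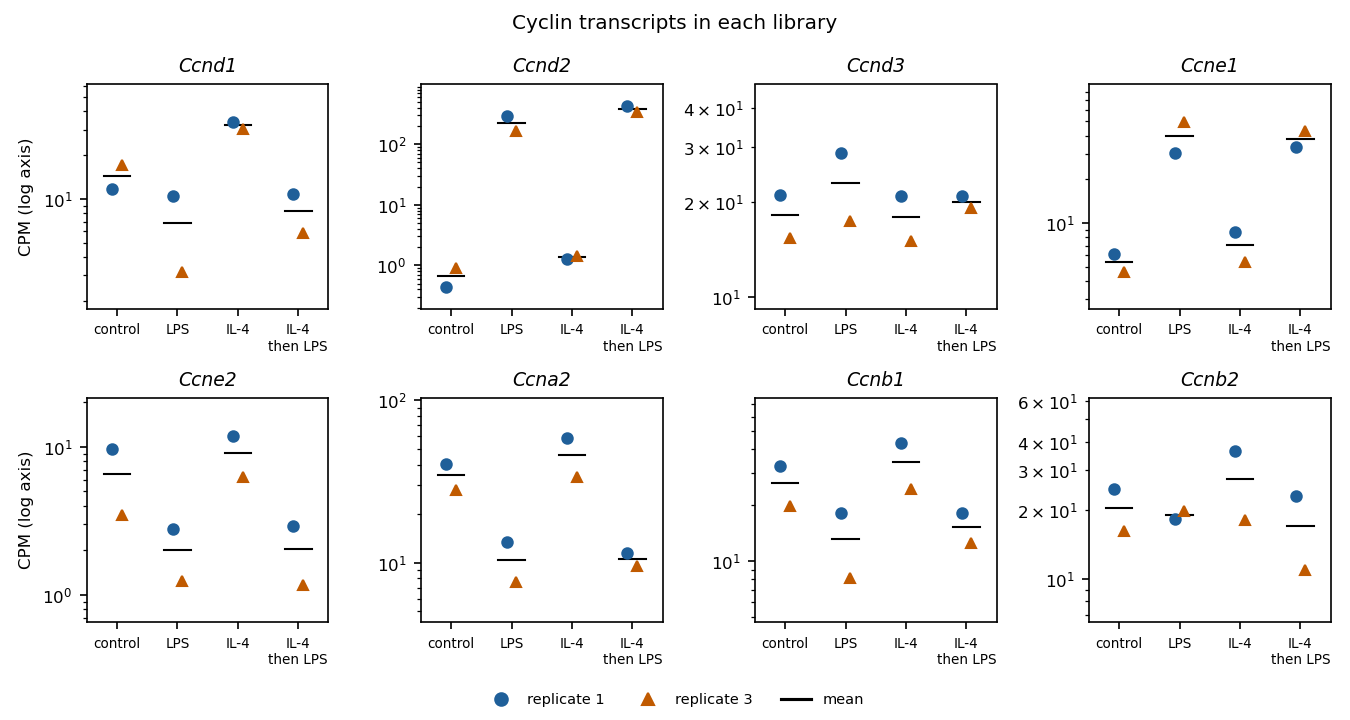
Level (CPM, log scale) of the 8 cyclins in each of the 8 libraries, with replicate 1 as circles, replicate 3 as triangles and the group mean as a line. Ccnd2 and Ccne1 are high in all 4 LPS-treated libraries, Ccna2 is low in them, and Ccnb2 and Ccnd3 overlap between control and LPS.

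Of the kinases and their phosphatase, 2 of 3 fell. Cdc25b, a phosphatase that activates CDKs before mitosis, stood at 56.1 and 42.0 CPM in control, 7.83 and 5.38 after LPS, 85.6 and 47.6 after IL-4, and 5.83 and 5.32 after IL-4 then LPS. It fell by 2.89 ± 0.34 (adjusted p = 0.000386), with LPS-treated libraries all below the others. Cdk2, the kinase of the E- and A-type cyclins, stood at 29.2 and 25.2 CPM in control, 10.5 and 9.39 after LPS, 30.1 and 22.1 after IL-4, and 13.8 and 8.69 after IL-4 then LPS. Cdk2 fell by 1.45 ± 0.26 (adjusted p = 0.00345). Cdk1, the mitotic kinase, was at -0.68 with no call (adjusted p = 0.144).

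The CDK inhibitors divided. Cdkn1a (chr17:29090976-29100727, plus strand), which encodes p21, stood at 114 and 99.9 CPM in control, 1410 and 2280 after LPS, 155 and 157 after IL-4, and 1910 and 2580 after IL-4 then LPS. It rose by 4.11 ± 0.29 (adjusted p = 3.26e-05), with no overlap. Cdkn2c, which encodes the Cdk4 and Cdk6 inhibitor p18, stood at 38.6 and 32.0 CPM in control, 9.37 and 11.0 after LPS, 46.5 and 34.8 after IL-4, and 11.2 and 12.3 after IL-4 then LPS. It fell by 1.79 ± 0.21 (adjusted p = 0.000385). Cdkn1b, which encodes p27, stood at 48.0 and 44.2 CPM in control, 35.0 and 24.9 after LPS, 39.7 and 31.5 after IL-4, and 31.2 and 31.4 after IL-4 then LPS. Cdkn1b fell by 0.62 ± 0.20 (adjusted p = 0.0362), a call that was lost when any 1 of control replicate 1 (0.103), control replicate 3 (0.0627), LPS replicate 3 (0.185), IL-4 then LPS replicate 1 (0.0534) or IL-4 then LPS replicate 3 (0.0524) was left out.

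**Figure D4:**
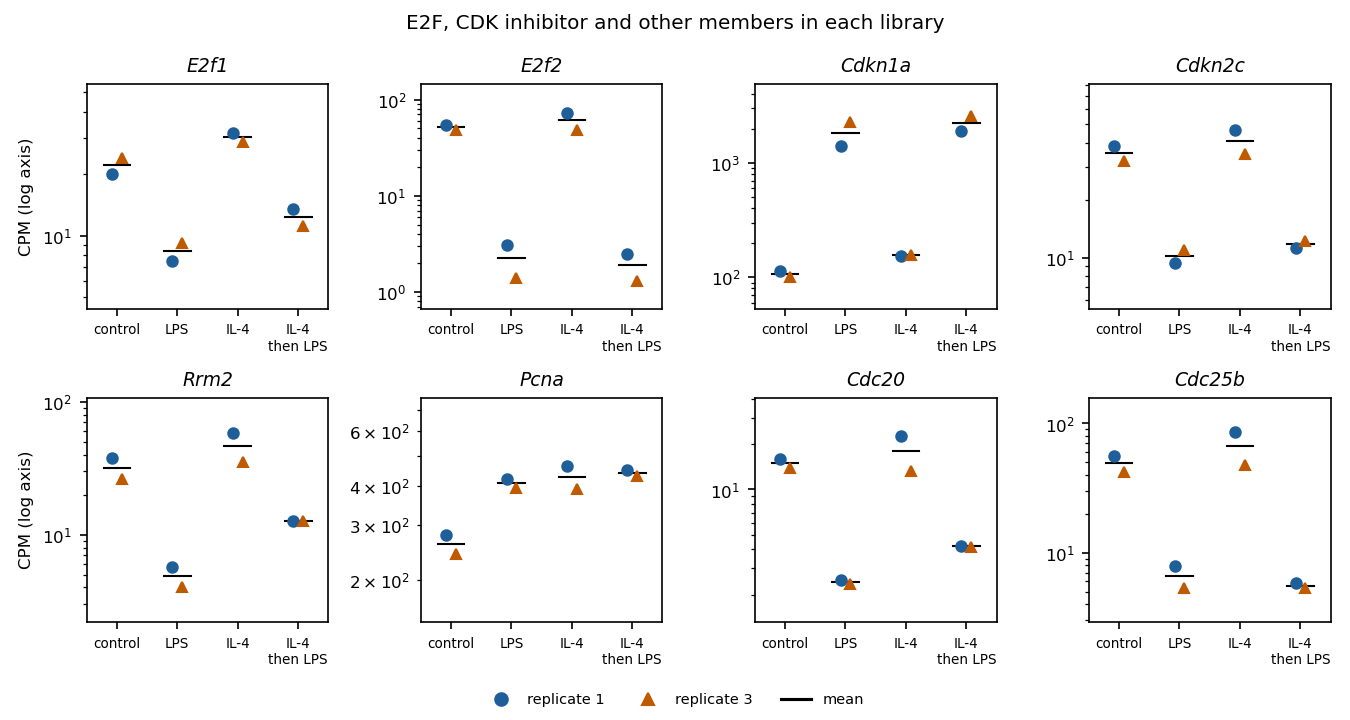
Level (CPM, log scale) of E2f1, E2f2, Cdkn1a, Cdkn2c, Rrm2, Pcna, Cdc20 and Cdc25b in each of the 8 libraries, with replicate 1 as circles, replicate 3 as triangles and the group mean as a line. E2f2 and Cdc25b are low, and Cdkn1a high, in all 4 LPS-treated libraries.

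Among the mitosis genes, Cenpf, a kinetochore protein, stood at 31.8 and 17.8 CPM in control, 4.06 and 2.62 after LPS, 30.9 and 11.0 after IL-4, and 3.79 and 3.76 after IL-4 then LPS. It fell by 2.89 ± 0.55 (adjusted p = 0.00453). Cdc20, an activator of the anaphase-promoting complex, stood at 16.0 and 13.8 CPM in control, 2.52 and 2.35 after LPS, 22.6 and 13.2 after IL-4, and 4.22 and 4.15 after IL-4 then LPS. Cdc20 fell by 2.61 ± 0.32 (adjusted p = 0.000518). Kif23, a motor of cytokinesis, stood at 34.9 and 20.3 CPM in control, 5.73 and 3.45 after LPS, 37.1 and 19.6 after IL-4, and 5.68 and 2.20 after IL-4 then LPS. It fell by 2.59 ± 0.52 (adjusted p = 0.00543). For Cenpf, Cdc20 and Kif23 each LPS-treated library was below each library without LPS. Further falls ran from -1.98 for the motor Kif20a to -1.29 for topoisomerase Top2a, and took in the kinases Plk1 (-1.51), Aurka (-1.74), Aurkb (-1.35), Bub1 (-1.56) and Bub1b (-1.53), the motor Kif11 (-1.41) and Birc5 (-1.39), a partner of Aurkb.

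3 mitosis genes did not fall after LPS, named here after their values were seen. Tpx2, a spindle assembly factor, stood at 41.8 and 33.4 CPM in control and 75 and 60.1 after LPS, and rose by 0.84 ± 0.26 (adjusted p = 0.0362). The call was lost without any 1 of the 4 libraries compared (0.0535 to 0.176), with upper-quartile factors (0.127) and with library size alone (0.509). Cenpe, a kinetochore motor, stood at 34.2 and 18.8 CPM in control and 61.8 and 40.2 after LPS (0.94 ± 0.47, adjusted p = 0.149), and was called higher without the filter (0.000133). Mki67, the widely used proliferation marker, stood at 178 and 101 CPM in control and 204 and 150 after LPS, which overlapped (0.34 ± 0.42, adjusted p = 0.554). Its direction turned without control replicate 3 (-0.053) and with library size alone (-0.271). The 9 mitosis genes with a CHR in the promoter ran from -2.89 to 0.34 after LPS with a median of -1.53, and 8 of them fell.

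In cells that had received IL-4, LPS was compared in libraries that the first comparison did not use, called the IL-4 arm here. Both comparisons came from 1 fit, in which the spread was estimated over all 8 libraries. Same-numbered libraries also share sex, so the calls of the 2 comparisons are not independent. Between IL-4 then LPS and IL-4 alone, 23 of the 52 fell, 4 rose and 25 were not called, with a median of -1.16, beside 18.6% lower and 20.7% higher among all tested genes. The count that fell was 14 without IL-4 replicate 1 and 14 without IL-4 then LPS replicate 3. Ranges did not overlap for 36 of the 52 in the lower and 6 in the higher direction, beside 36.9% and 34.8% of all tested genes. The 19 genes that fell in both comparisons were 76% of the 25 and 82.6% of the 23. Rfc3, Ccnd2, Ccne1 and Cdkn1a rose in both, which is 66.7% of the 6 and 100% of the 4. These overlaps were not counted over all tested genes, so they are not shown to be particular to the 52. Of the mitosis genes, 11 of 15 fell, with a median of -1.68, against 4 of 21 replication genes with a median of -0.84. Of the cyclins 3 fell and 2 rose, with a median of -0.92.

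Of the genes called after LPS alone, 19 falls and 4 rises were called in the same direction after prior IL-4. Ccnd1, Ccne2, Prim1 and Rrm1 were called lower in the IL-4 arm only. E2f2 fell by 5.02 ± 0.40 (adjusted p = 6.32e-05), Cdc25b by 3.58 ± 0.35 (0.000155) and Rrm2 by 1.89 ± 0.30 (0.00193). Ccnd2 rose by 8.14 ± 0.40 and Cdkn1a by 3.85 ± 0.28. Ccnd1 fell by 1.96 ± 0.49 (adjusted p = 0.0152), a call lost without IL-4 replicate 1 (0.0553) or IL-4 then LPS replicate 3 (0.0967). Ccne2 fell by 2.17 ± 0.68 (adjusted p = 0.0366), lost without IL-4 replicate 1 (0.166), IL-4 then LPS replicate 1 (0.0513) or IL-4 then LPS replicate 3 (0.185). Pcna was level between IL-4 and IL-4 then LPS (0.04 ± 0.15, adjusted p = 0.852). Of the 5 licensing and helicase genes that fell after LPS without IL-4, 1 was called here: Cdc45 (-1.18 ± 0.38, adjusted p = 0.0425). That call was lost when any library but IL-4 then LPS replicate 1 was left out (0.0509 to 0.215). The remaining 4 had adjusted p of 0.0524 for Cdc6, 0.0598 for Mcm3, 0.0626 for Mcm7 and 0.107 for Mcm2. Over the 16 alternative settings Cdc6 was called lower in 9, Cdc45 in 7, Mcm3 and Mcm7 in 6 each and Mcm2 in 5.

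Whether LPS acted differently after IL-4 was tested as an interaction, and 0 of the 52 were called, as were 0 of the 12234 genes. At an unadjusted p under 0.05 there were 1 of the 52, Pcna, and 2.63% of all tested genes. DESeq2 called 0 of the 52 and 5 of all genes. Genes called in one arm and not in the other, such as Mcm2, Mcm3, Mcm7 and Ccnd1, are thus not shown to respond differently.

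With the filter on low counts and 1 mean per group, edgeR called 0 of the 52 after IL-4 alone, while the sign of the change was positive for 48. Between IL-4 and control, 48 of the 52 had a positive log2 fold change (92.3%), against 49.6% of all tested genes, including 21 of 21 replication genes and 14 of 15 mitosis genes. Medians were 0.45 for replication genes, 0.29 for mitosis genes and 0.42 for cyclins. This count depended on the libraries kept: without IL-4 replicate 1, 24 of the 52 were positive, with 16 of 21 replication and 4 of 15 mitosis genes. That fit set IL-4 replicate 3 against both control libraries, and 50 of the 52 were higher in IL-4 replicate 1 than in replicate 3. With a replicate block in the fit, 48 were positive. Without control replicate 3, 38 were positive. Of all tested genes, 0.0572% were called higher and 0.00817% lower in this comparison, 0.0654% in all, and 7.29% had an unadjusted p under 0.05, against 5 of the 52. DESeq2 called 1 of the 52, Pcna (adjusted p = 0.015), and edgeR without the filter called Pcna (0.0191) and Ccnd1 (0.000533). Ranges did not overlap for 12 of the 52 in the higher and 1 in the lower direction, beside 19.5% and 19.1% of all tested genes.

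The 5 genes with an unadjusted p under 0.05 after IL-4 were Pcna (0.72 ± 0.15), Gins2 (0.83 ± 0.26), Tyms (0.84 ± 0.29), Ccnd1 (1.16 ± 0.46) and E2f1 (0.45 ± 0.18), with adjusted p from 0.206 to 0.659. Gins2, a subunit of the helicase activator GINS, stood at 5.88 and 4.84 CPM in control and 10.2 and 8.97 after IL-4. Tyms, which makes thymidylate, stood at 5.70 and 3.85 CPM in control and 8.64 and 8.51 after IL-4. In each of these 5, both IL-4 libraries were above both control libraries. The 5 were picked by p-value in these same libraries, so this is no separate support. Of all tested genes, 7.29% had an unadjusted p under 0.05, and 19.5% had both IL-4 libraries above both control libraries.

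By the same edgeR test, prior IL-4 gave 0 calls among the 52 after LPS. Between IL-4 then LPS and LPS alone, 39 of the 52 were positive (75%), against 45.9% of all tested genes, and 19 of 21 replication genes were. Without LPS replicate 3, 28 of the 52 and 15 of 21 replication genes were positive, and without IL-4 then LPS replicate 1, 27 and 12. Of all tested genes 0.049% were called higher and 0.0163% lower, 0.0654% in all, and 8.5% had an unadjusted p under 0.05, against 6 of the 52. Rrm2 was at 1.37 ± 0.34 (unadjusted p = 0.00391, adjusted p = 0.294), and DESeq2 called it (adjusted p = 0.0408). Without the filter edgeR called Rrm2 (4.39e-05) and Ccnd2 (0.00514) higher and Cdt1 lower (0.0398). The remaining 5 were Tyms (0.95), Ccnd2 (0.76), Rfc4 (0.76), E2f1 (0.55) and the licensing factor Cdt1 (-0.69). Cdt1 stood at 49.2 and 59.5 CPM after LPS and 34.2 and 33.2 after IL-4 then LPS. This comparison shares the LPS libraries with LPS against control, and IL-4 against control shares the control libraries with it.

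**Figure D5:**
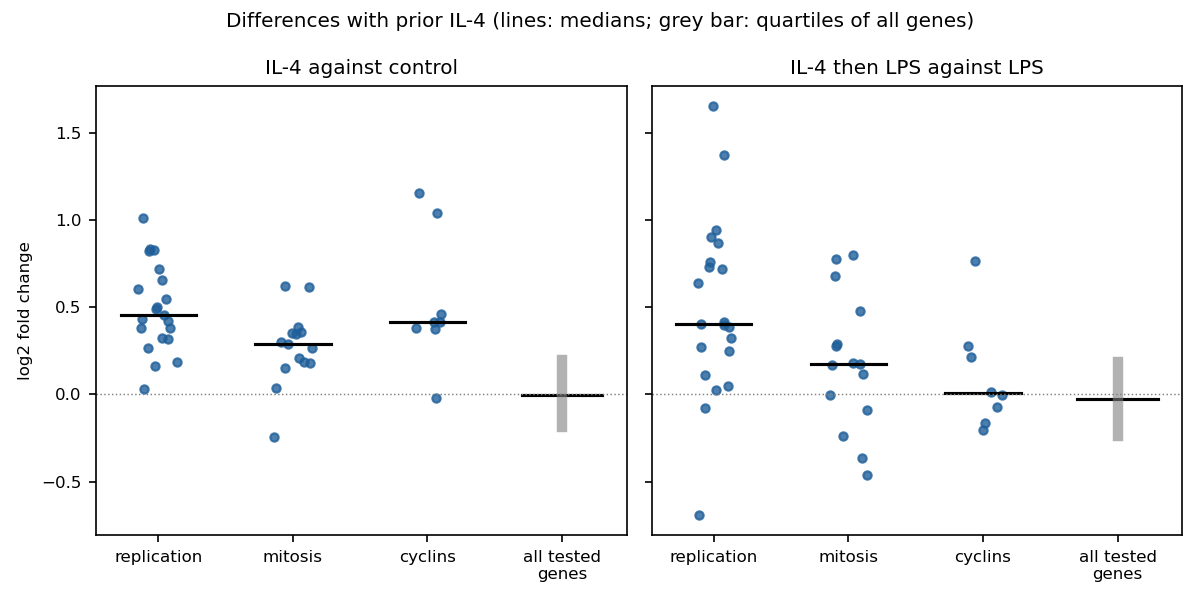
Log2 fold change of the replication genes, mitosis genes and cyclins (1 point a gene) in the comparisons of prior IL-4, with lines at the medians and a grey bar from the lower to the upper quartile of all tested genes. For IL-4 against control 21 of 21 replication and 14 of 15 mitosis genes lie above 0, and for IL-4 then LPS against LPS 19 of 21 and 10 of 15. The lowest counts with 1 library left out were 16 and 4 for the former, both without IL-4 replicate 1. For the latter they were 12 without IL-4 then LPS replicate 1 and 6 without LPS replicate 3.

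Further genes of the same processes, none of them in the set, were counted in the same fit, and the difference between these lists was not tested. Of 33 other replication genes 32 were tested, and 13 fell and 2 rose after LPS, with a median of -0.71. Gmnn, the inhibitor of Cdt1, changed by -3.55, the checkpoint mediator Clspn by -3.16 and the fork protection gene Timeless by 3.13. Of 42 other mitosis genes, 25 fell and 2 rose, with a median of -1.25, and Kif18b (-2.75), Ckap2 (-2.62) and Aspm (-2.59) had the largest called changes. In the IL-4 arm the counts were 15 and 2 of 32 for replication, with a median of -0.76, and 24 and 2 of 42 for mitosis, with a median of -1.42.

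The counts of the next lists are to be read beside the 18.6% of all tested genes that fell and the 21.8% that rose. Among 18 tested other cyclins, kinases and inhibitors, 3 fell and 3 rose after LPS, shares near those of all genes, with Cdkn2b, which encodes the CDK inhibitor p15, at 2.58, Ccnf at -2.41 and Ccng2 at 1.94. Cdkn2b rests on few reads, at 0.259 and 0.395 CPM in control and 2.1 and 1.93 after LPS. Of 16 E2F, retinoblastoma family and DREAM complex genes, 6 fell and 3 rose, with the pocket protein gene Rbl1 at 2.43, the E2F partner Tfdp2 at -2.41 and the repressor E2f7 at -2.10. Of 16 p53 target and growth arrest genes, 5 fell and 5 rose, with Sesn1 at -4.74, Gadd45b at 3.86 and Plk2 at 2.48. Of 9 tested genes of macrophage growth signalling, 2 fell and 5 rose, with the growth factor gene Csf1 at 4.93 and the Myc antagonist Mxd1 at 3.37. No gene of these 6 lists was called by edgeR in either comparison of prior IL-4. At an unadjusted p under 0.05 there were 7.29% of all tested genes after IL-4 and 8.5% between IL-4 then LPS and LPS. In that order, the counts were 3 and 3 of the 32 other replication genes and 1 and 4 of the 42 other mitosis genes. They were 2 and 1 of the 18 other cyclins, kinases and inhibitors. They were 1 and 3 of the 16 E2F, retinoblastoma family and DREAM complex genes. For the 16 p53 target and growth arrest genes they were 3 and 1, and for the 9 of macrophage growth signalling 4 and 4.

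No source used here says whether the counting used strand, so reads of overlapping genes cannot be told apart. This touches Ccnd2 (overlapped by 9330179D12Rik, with 23 reads in all), Cdkn1a (AC167363.2, 104 reads) and Cdc20 (Elovl1, 12379 reads). Other members overlapped by a gene with reads are Mcm7, Cdc45, Gins2, Rfc4, Tk1, Ccnd1, Ccnd3, Ccne2, Ccna2, Cdk2, Cdc25b, Plk1, Kif20a and Top2a.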

How the data were processed

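Total RNA of 8 libraries of cultured mouse macrophages was sequenced. The authors deposited a table of raw read counts per gene, whole numbers with no normalization. The submitters' processing notes name HISAT2, StringTie, HTSeq and the mm10 genome. Versions, strand setting and read length are not given in the sources used here. Gene start, end, length and strand were read from the deposited table as annotation. Another 6 columns of counts match no sample label and were not used.

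Genes were kept by filterByExpr by group (12234 of 54532, with 99.84% to 99.92% of counts) and fitted in edgeR 4.0.16 (R 4.3.3, limma 3.58.1) with TMM factors (0.786 to 1.25), 1 mean per group, and the quasi-likelihood test, whose p-values were adjusted by Benjamini-Hochberg over all tested genes. Calls have an adjusted p under 0.05. The SE was derived from the size of the fold change and the F statistic and is approximate for genes with few reads. Levels are CPM on TMM-scaled totals, and RPKM divides these by the deposited gene length. Alternatives were DESeq2 1.42.0, other scalings, other filters, a replicate term, the compared groups alone, and each library left out in turn, which assumes that a lone library varies like the other groups. The fit was also run on simulated counts with the same spread for all genes. That run did not test the scaling or the sex difference between replicates.

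The members and lists were chosen with earlier results of these data known. Levels are given for all cyclins, CDK inhibitors and E2F genes, and in each other role for up to 3 called genes with the largest LPS change. For genes picked by their LPS change, libraries that do not overlap are no separate support. Promoters were matched by symbol. The labels do not say whether libraries come from separate animals or cultures. The p-values rest on the spread between the 2 libraries of a group that differ in sex, which may be in part technical, and depth limits genes with few reads.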

Additional observations from a re-analysis of the deposited data

How the results depend on the processing

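Leaving out 1 library gave 13 to 27 falls after LPS and 14 to 25 after LPS in the IL-4 arm. Medians then ran as follows: LPS against control, cyclins -0.882 to -0.236; IL-4 against control, replication 0.109 to 0.734, mitosis -0.171 to 0.572, cyclins -0.0757 to 0.756; IL-4 then LPS against LPS, replication 0.0706 to 0.812, mitosis -0.0331 to 0.395, cyclins -0.291 to 0.583; IL-4 then LPS against IL-4, replication -1.26 to -0.455, mitosis -1.94 to -1.10, cyclins -1.37 to -0.393. Single genes changed sign within these ranges: after LPS, Ccnb2 -0.415 to 0.178, Ccnd3 -0.073 to 0.655 and Mki67 -0.053 to 0.74; in the IL-4 arm, Ccnd3 -0.0349 to 0.408, Mki67 -0.0489 to 1.21, Cenpe -0.314 to 0.906 and Pcna -0.0532 to 0.165.

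Library size alone moved the median of all genes after LPS from -0.01 to -0.62, and the share of calls that rose from 53.9% to 21.2% (upper-quartile factors, -0.28 and 36.6%). In the IL-4 arm the median went to -0.56 and -0.28, and the share from 52.8% to 22.5% and 36%. The class medians after LPS became -1.51, -2.11 and -1.16 for replication, mitosis and cyclins, and -1.36, -2.22 and -1.45 in the IL-4 arm, where 36 genes fell. It turned Ccnd3 (-0.264) and Mki67 (-0.271) after LPS, and Ccnd3 (-0.369), Cenpe (-0.227), Mki67 (-0.102) and Pcna (-0.484) in the IL-4 arm. Upper-quartile factors turned Ccnd3 (-0.0934) and Pcna (-0.21) there, and fitting without a filter turned Pcna (-0.0027). RLE size factors turned the cyclin median of IL-4 then LPS against LPS to -0.000645.

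DESeq2 called 1 gene higher in each comparison of prior IL-4. Without a filter on low counts 2 were higher after IL-4, 2 were higher and 1 lower between IL-4 then LPS and LPS, and 35 fell in the IL-4 arm. The labels share only replicate numbers, which also mark sex. Deviations of same-numbered libraries correlated at 0.343 to 0.524 over all genes. With a replicate block, 34 fell and 8 rose after LPS, among them Ccne2 (adjusted p = 0.0016), Ccnb1 (0.000841) and Ccnd1 (0.0464) lower and Cenpe (0.000342) higher, which were not called without it. There, 2 genes were called higher after IL-4 (Mcm5 and Pcna), 2 between IL-4 then LPS and LPS (Rrm2 and Ccnd2), and 36 fell and 7 rose in the IL-4 arm. Of all 12234 tested genes, that fit called 3121 lower and 3453 higher after LPS, and 3151 and 3182 in the IL-4 arm. It called 105 lower and 183 higher after IL-4, and 149 and 132 between IL-4 then LPS and LPS. The causes were not tested.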
